A study of Mus musculus with 4 samples.

Results

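The 10 genes described here encode heat-shock chaperones: Hspa1a, Hspa1b, Hspa8, Hsph1, Hsp90aa1, Hsp90ab1, Dnajb1, Hspb1, Hspd1 and Hspe1. They were selected by gene name from a table of 54532 mouse genes, and the set was chosen with earlier results of the same contrast known, so no p-value is given for them, and whether they passed the threshold of the fit across all genes is reported as a description only. The working name of the set was cytosolic chaperones, but Hspd1 and Hspe1 encode chaperones of the mitochondrial matrix, and the set is called heat-shock chaperones in what follows. All 10 passed the filter on low counts. The RNA-seq libraries were labelled as tumour-associated macrophages of glioblastoma xenografts. The labels give the sort as CD45+/Gr1-/CD11b+/DAPI-, after digestion of the tumours for 45 min at 37 °C. The tested libraries were 2 labelled MK-8931-treated, and 2 labelled control stood against them. MK-8931, or verubecestat, blocks BACE1, the beta-secretase that cleaves the amyloid precursor protein. The dose, the host strain and the age of the animals are not given in the labels, which call the mice only "GBM mice". The protocols in the labels speak of glioma stem cells exposed for 3 days and of RNA from those stem cells, against the sorted macrophages of the sample labels. How the drug reached the macrophages is therefore not settled here. The labels do not tie the libraries to different animals, and p-values therefore measure the spread among these 4 libraries only, which may be technical.

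Heat-shock chaperones bind unfolded or partly folded proteins and keep them from aggregating. HSP70 proteins bind and release short hydrophobic stretches in cycles of ATP hydrolysis, J-domain proteins such as DNAJB1 deliver the clients, and HSP110 proteins exchange the nucleotide. HSP90 acts later, on kinases, steroid receptors and other clients that are nearly folded. When proteins unfold, the transcription factor HSF1 is released from chaperones, forms trimers and binds heat-shock elements in the promoters of chaperone genes. Hspa1a and Hspa1b are the textbook stress-induced HSP70 genes, whereas Hspa8 is the HSP70 that cells make without stress.

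Promoter windows of 7 of the 10 genes were found in a RefSeq table (GRCm38.p6), each with 250 bases before and 50 after an annotated transcription start. Hspa8, Hsp90aa1 and Hsp90ab1 were not in the table. The windows are shown for the inducible HSP70 pair and Hsph1, on which the results turn, and for Hspe1, whose element was the longest of the set. Capitals mark heat-shock element units, that is, alternating GAA and TTC separated by any 2 bases. They were searched on both strands as pairs (GAANNTTC or TTCNNGAA) and as runs of 3 units (GAANNTTCNNGAA or TTCNNGAANNTTC), and pairs inside a run overlap.
Hspa1a, chr17:34972107-34972406, minus strand: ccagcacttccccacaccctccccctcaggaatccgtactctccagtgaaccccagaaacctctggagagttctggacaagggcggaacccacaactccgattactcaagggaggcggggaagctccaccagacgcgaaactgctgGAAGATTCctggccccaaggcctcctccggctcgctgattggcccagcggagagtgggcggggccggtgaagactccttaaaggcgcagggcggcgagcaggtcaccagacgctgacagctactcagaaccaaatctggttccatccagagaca
Hspa1b, chr17:34959189-34959488, minus strand: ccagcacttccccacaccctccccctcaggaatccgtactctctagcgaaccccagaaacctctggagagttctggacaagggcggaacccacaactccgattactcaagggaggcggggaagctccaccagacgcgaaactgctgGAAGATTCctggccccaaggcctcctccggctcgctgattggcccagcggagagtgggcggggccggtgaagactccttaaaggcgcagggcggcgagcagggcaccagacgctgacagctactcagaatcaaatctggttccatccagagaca
Hsph1, chr5:149636287-149636586, minus strand: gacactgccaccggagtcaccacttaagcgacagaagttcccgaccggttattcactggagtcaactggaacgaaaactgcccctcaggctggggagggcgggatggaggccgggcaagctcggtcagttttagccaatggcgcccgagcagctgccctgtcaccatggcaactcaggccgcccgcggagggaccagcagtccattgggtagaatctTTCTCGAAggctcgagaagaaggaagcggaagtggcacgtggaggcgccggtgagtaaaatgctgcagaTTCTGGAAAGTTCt
Hspe1, chr1:55087898-55088197, plus strand: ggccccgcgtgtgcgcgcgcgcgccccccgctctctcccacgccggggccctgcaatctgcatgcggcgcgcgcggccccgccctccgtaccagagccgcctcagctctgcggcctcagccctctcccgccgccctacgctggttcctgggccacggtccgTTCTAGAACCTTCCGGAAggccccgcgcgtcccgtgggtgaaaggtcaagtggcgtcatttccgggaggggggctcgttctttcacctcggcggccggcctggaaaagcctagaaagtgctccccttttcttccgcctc

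The Hspa1a and Hspa1b windows were identical at 296 of 300 bases (98.67%) and each held 1 pair of units, at positions -104 to -97 from the start. Hsph1 held a pair at -33 to -26 and a run of 3 units at 36 to 48, downstream of the start. In Hspe1 the units formed 1 run of 4 from -89 to -72, found as 2 overlapping runs of 3. One of the Hspd1 windows covers the same DNA on the other strand over 285 bases and held the same run, at -144 to -127. The other Hspd1 window held no match. Hspb1 held separate pairs at -117 to -110 and -97 to -90. No match lay in either window of Dnajb1. Among all 32851 windows of the table, 15.1% held at least 1 pair and 0.603% held a run of 3. The sequence TATAAA, present on either strand in 13.6% of windows, was in no window of the 7 genes. A match describes the sequence and does not show that a factor bound there.

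**Figure D1:**
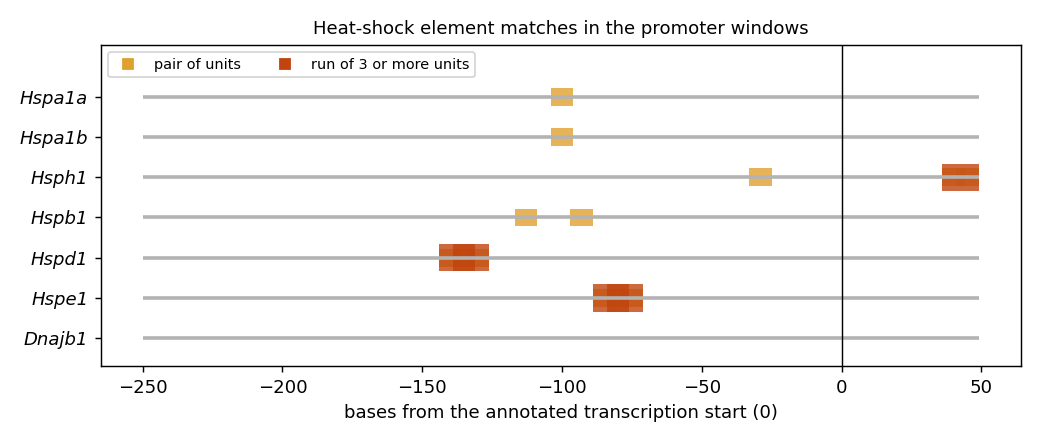
Position of heat-shock element units in 1 promoter window of each of the 7 genes, in bases from the annotated transcription start (x axis). Yellow blocks are pairs of units and red blocks are runs of 3 or more. Hspa1a and Hspa1b share 1 pair at the same distance from the start, Hsph1, Hspd1 and Hspe1 hold runs, and Dnajb1 holds none. The other Hspd1 window, not shown, holds no match.

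The inducible HSP70 genes and Hsph1 had the largest log2 fold changes of the 10 genes, and their order among themselves changed with the library left out. Hspa1b (ENSMUSG00000090877, chr17:34956436-34959238, minus strand, GRCm38) had 1453 and 1165 CPM (counts scaled to library size, with TMM factors) in the MK-8931 libraries, against 556 and 265 CPM in the controls. Both MK-8931 libraries lay above both controls. The means were 1309 ± 204 CPM with MK-8931 and 411 ± 205 CPM in controls (SD, n = 2 each), a 3.19-fold difference and a log2 fold change of 1.67 (SE 0.30). Hspa1a (ENSMUSG00000091971, chr17:34969190-34972156, minus strand) had 556 and 457 CPM with MK-8931, against 227 and 112 CPM in controls. Its groups did not overlap either, and its log2 fold change was 1.58 (SE 0.28), or 2.99-fold. In bulk RNA, a change in the share of cells that make a transcript and a change in the amount per cell cannot be told apart.

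Reads of these genes are hard to assign. Hspa1a and Hspa1b lie on the same strand 9951 bases apart, each is a single exon, and their coding sequences are identical at 1918 of 1929 aligned bases (99.43%). Of all 50-base words of the Hspa1a transcript, 58.8% also occur in Hspa1b, so the counting may have divided shared reads between them. Their 3′ untranslated regions share 45.73% of aligned bases. With the counts of the pair summed, the log2 fold change was 1.65 (SE 0.29). The ratio of Hspa1b to Hspa1a FPKM (counts scaled to gene length and library size) was 2.77 and 2.70 with MK-8931, and 2.60 and 2.50 in controls. The predicted gene Gm20481, which overlaps Hspa1a by 2225 bases on the opposite strand, had 0 counts in every library.

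Both genes passed the threshold (adjusted p under 0.05) in the fit across all genes, as the only ones of the 10, so 2 of 10 were higher. Of all 13932 genes tested, 0.861% were higher by the same criterion. None of the 10 was lower, against 0.136% of all genes. Since the set was chosen with this contrast known, nothing is read from these shares. The calls did not hold in every fit. With DESeq2, or with scaling by library size alone, 0 of the 10 were called. None was called without MK-8931 replicate 1, and without MK-8931 replicate 2 only Hsph1 was called. The log2 fold change of Hspa1b ranged between 1.24 and 2.29 when 1 library was left out, and that of Hspa1a between 1.16 and 2.16. The lowest of these came without control replicate 2 and the highest without control replicate 1. None of the 10 had an adjusted p under 0.05 in the authors' deposited table, whose log2 fold changes were 1.67 for Hspa1b and 1.57 for Hspa1a.

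Markers of another cell type moved with the group. Of 20 neutrophil genes listed, 15 were tested and 12 were higher with MK-8931, none lower, with a median log2 fold change of 3.25. Their summed level was 1292 and 2039 CPM with MK-8931 and 494 and 472 CPM in controls. The defining gene Ly6g, part of the Gr1 antigen that the sort removed, had 0 and 14 counts with MK-8931 and 0 in both controls. Ly6c2, a further defining gene outside the neutrophil list, had 43 and 12 counts with MK-8931 and 11 and 4 in controls. Its groups did not overlap (log2 fold change 1.84, adjusted p = 0.545 in edgeR). MK-8931 replicate 1 had the higher Hspa1a, Hspa1b and Hsph1 level of its pair and the lower neutrophil sum. Control replicate 1 had the higher level of these genes and also the higher neutrophil sum. Mmp9 had 632 and 939 CPM with MK-8931 and 375 and 349 CPM in controls, most of the sum there. S100a8 had 31.2 and 75.4 CPM with MK-8931 and 2.10 and 6.18 CPM in controls. The part of neutrophil RNA in the chaperone levels was not tested.

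Hsph1 encodes HSP105, an HSP110 protein that serves as nucleotide exchange factor for HSP70. The gene (ENSMUSG00000029657, chr5:149614287-149636376, minus strand) had 202 and 94.9 CPM with MK-8931, against 62.5 and 38.4 CPM in controls. The groups did not overlap, but MK-8931 replicate 1 was far above replicate 2. The means were 148 ± 75.8 CPM with MK-8931 and 50.4 ± 17.1 CPM in controls (SD, n = 2 each). The log2 fold change was 1.56 (SE 0.36), near that of the Hspa1 pair but with a larger error, and did not pass the threshold. It was 0.91 without MK-8931 replicate 1 and 1.99 without MK-8931 replicate 2. None of the 50-base words of its transcript occurs in another gene, unlike those of the Hspa1 pair. Such shared words made up 74.8% for Hspa8, 58.5% for Hsp90aa1, 51.65% for Hspb1, 44.8% for Hspe1 and 44.8% for Hspd1. They made up 4.49% for Hsp90ab1 and 0.441% for Dnajb1. Unlike in the Hspa1 pair, the gene sharing most words had few counts where it was counted. It had 0 or 1 a library for Hspa8 and 24 to 34 for Hsp90aa1. For Hspb1 it had 0 and for Hspd1 4 to 7, and for Hspe1 it was not among the genes counted. How shared reads were handled is not known, so levels and ratios of the genes with many shared words remain uncertain. The ratio of Hsph1 to its paralogue Hspa4, the other major cytosolic HSP110 gene, was 0.787 and 0.355 with MK-8931, and 0.247 and 0.150 in controls, in FPKM at the authors' gene lengths. Hspa4 itself had a log2 fold change of 0.04.

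**Figure D2:**
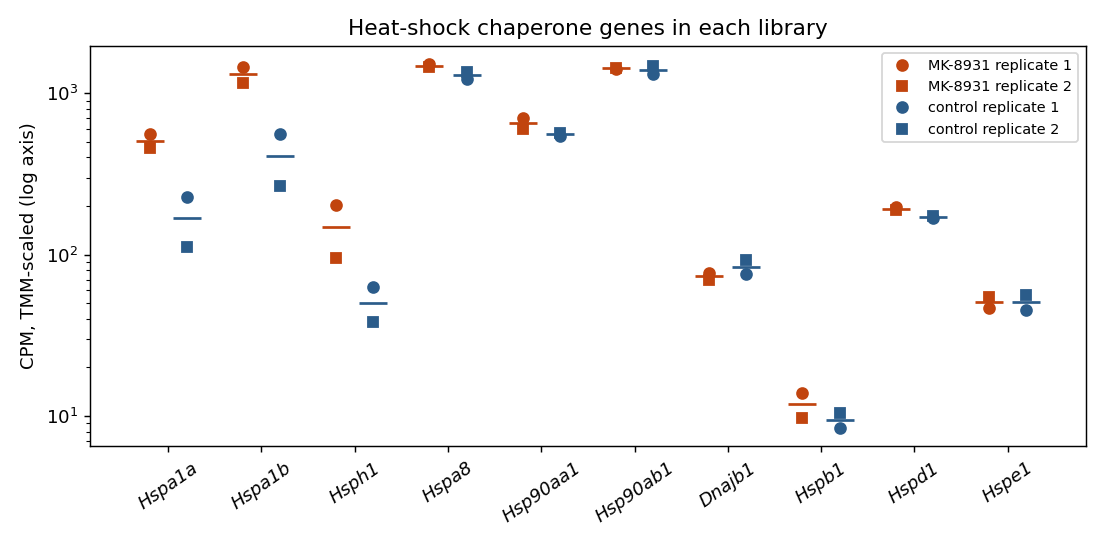
Level of each heat-shock chaperone gene in the 4 libraries, as TMM-scaled CPM on a log axis. Orange symbols are MK-8931 and blue symbols control, circles are replicate 1 and squares replicate 2, and bars are group means. Hspa1a, Hspa1b and Hsph1 show wide gaps between the groups, and the replicate 1 circle is above the replicate 2 square in both groups for these genes.

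The constitutive HSP70 and the HSP90 genes lay much closer to the controls. Hspa8 (ENSMUSG00000015656, chr9:40800984-40810087, plus strand), which also strips clathrin from vesicles, had 1516 and 1455 CPM with MK-8931, against 1229 and 1362 CPM in controls. The groups did not overlap, and the log2 fold change was 0.20 (SE 0.12), short of the threshold. Its coding sequence is 73.92% identical to that of Hspa1a. The summed FPKM of Hspa1a and Hspa1b was 2.003 and 1.68 times that of Hspa8 with MK-8931, and 0.961 and 0.418 times in controls. These ratios depend on gene length, since the authors' length for Hspa8 was 4301 bases, against 2394 bases for its longest coding transcript in GENCODE. With transcript lengths, an alternative chosen after seeing the data, the ratio was 1.11 and 0.938 with MK-8931, and 0.535 and 0.233 in controls. In both ways of scaling, the MK-8931 libraries lay above the controls.

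Hsp90aa1 (ENSMUSG00000021270, chr12:110690605-110702728, minus strand) encodes HSP90 alpha, the more stress-responsive of the cytosolic HSP90 forms. It had 704 and 598 CPM with MK-8931, against 540 and 570 CPM in controls, with a log2 fold change of 0.23 (SE 0.13). The groups were separate by a small margin, and the threshold was not passed. Hsp90ab1 (ENSMUSG00000023944, chr17:45567775-45573271, minus strand) encodes HSP90 beta, the more constitutive form. Its levels of 1413 and 1438 CPM with MK-8931 lay inside the span of the controls, at 1312 and 1471 CPM, and the log2 fold change was 0.03 (SE 0.12). The sign of this value was not stable: it ranged between -0.05 and 0.12 when 1 library was left out. The FPKM ratio of Hsp90aa1 to Hsp90ab1 was 0.380 and 0.317 with MK-8931, and 0.314 and 0.296 in controls.

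Dnajb1 (ENSMUSG00000005483, chr8:83608193-83612653, plus strand) encodes the J-domain protein HSP40, which hands clients to HSP70. It had 76.9 and 69.6 CPM with MK-8931, against 75.3 and 92.0 CPM in controls. The groups overlapped, and the log2 fold change was -0.19 (SE 0.15), opposite in sign to those of its HSP70 partners, without passing the threshold. Hspb1 (ENSMUSG00000004951, chr5:135887919-135889563, plus strand) encodes the small heat-shock protein HSP27 (HSP25 in mouse), which holds unfolded proteins without using ATP. It had the lowest CPM of the 10, a measure not scaled to gene length, at 13.8 and 9.73 with MK-8931 and 8.40 and 10.5 in controls. Its groups overlapped, with a log2 fold change of 0.32 (SE 0.26).

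Hspd1 and Hspe1 encode HSP60 and HSP10, the barrel and the lid of the mitochondrial chaperonin. They are a head-to-head pair on chromosome 1, at chr1:55077835-55088243 on the minus strand and chr1:55088132-55091307 on the plus strand, whose annotated ends overlap by 112 bases. Hspd1 (ENSMUSG00000025980) had 197 and 189 CPM with MK-8931, against 168 and 173 CPM in controls, so the groups did not overlap. The difference was small, at a log2 fold change of 0.18 (SE 0.12). Hspe1 (ENSMUSG00000073676) had 46.8 and 54.9 CPM with MK-8931, against 45.3 and 56.5 CPM in controls, with a log2 fold change of -0.00 (SE 0.17). Neither gene passed the threshold. Their FPKM ratio was 2.35 and 1.92 with MK-8931, and 2.06 and 1.71 in controls. With transcript lengths it was 1.34 and 1.10 with MK-8931, and 1.18 and 0.980 in controls.

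Across the set, groups did not overlap for 6 of 10 genes, all of them higher with MK-8931: Hspa1a, Hspa1b, Hsph1, Hspa8, Hsp90aa1 and Hspd1. Of all genes tested, 21.2% were higher without overlap. None of the 10 was lower without overlap, against 20.0% of all genes. The median log2 fold change was 0.21 over the 10 genes and -0.00 over all genes tested. Since the set was chosen with this contrast known, nothing is read from these shares and medians. Hspa1a and Hspa1b, whose shared reads may have been divided between them, are also not separate observations. The 10 genes took 0.623% and 0.557% of all counts with MK-8931 and 0.427% and 0.403% in controls. Hspa1a and Hspa1b alone took 0.203% and 0.163% with MK-8931, against 0.0790% and 0.0366% in controls.

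**Figure D3:**
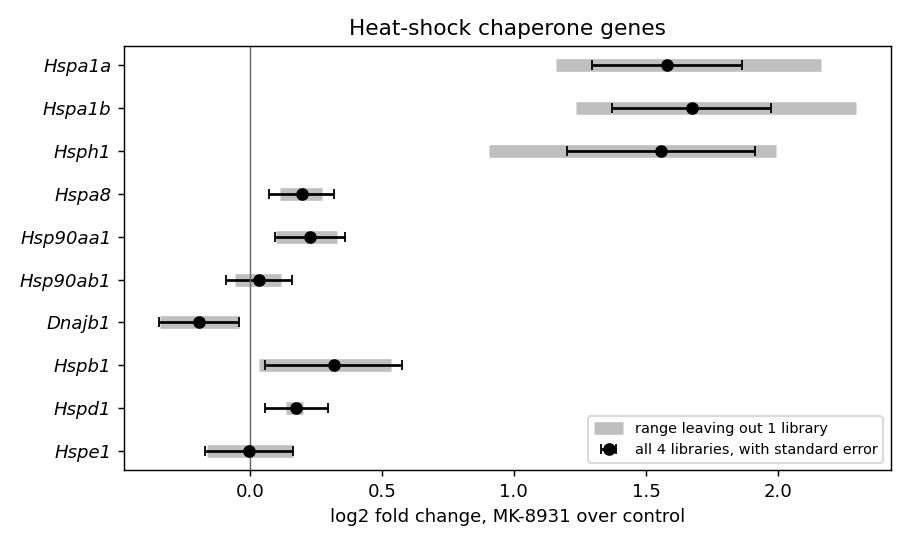
Log2 fold change of MK-8931 over control for each gene (points) with its standard error (black bars) and the range of values when 1 library at a time was left out (grey). Hspa1a, Hspa1b and Hsph1 lie between 1.56 and 1.67, and the other 7 genes between -0.19 and 0.32.

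Levels were compared per length, first by the authors' FPKM. With MK-8931 the mean FPKM was 472 ± 5.52 for Hsp90ab1 and 464 ± 72.5 for Hspa1b, whose values overlapped. Hspa8 followed at 343 ± 10.3 FPKM. Hspa1a at 169 ± 23.6 and Hsp90aa1 at 164 ± 19.0 FPKM overlapped each other, ahead of Hspd1 at 72.4 ± 2.22 and Hspe1 at 34.2 ± 3.84 FPKM (SD, n = 2 each). At the low end stood Dnajb1 at 22.7 ± 1.63, Hsph1 at 20.3 ± 10.4 and Hspb1 at 11.3 ± 2.78 FPKM, and the Hsph1 values overlapped those of both its neighbours.

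In the controls, Hsp90ab1 led at 463 ± 40.1 FPKM and Hspa8 followed at 301 ± 23.6 FPKM. Hspa1b at 146 ± 72.3 FPKM overlapped Hsp90aa1 at 141 ± 6.28 FPKM. Hspd1 at 64.5 ± 1.87, Hspa1a at 56.9 ± 26.9 and Hspe1 at 34.5 ± 5.55 FPKM came next, with Hspa1a overlapping both. Dnajb1 had 26.1 ± 3.83, Hspb1 9.14 ± 1.47 and Hsph1 6.92 ± 2.31 FPKM in controls, the last 2 overlapping. By mean FPKM among the 13932 genes tested, Hspa1b ranked 76 with MK-8931 and 319 in controls, and Hspa1a ranked 268 with MK-8931 and 844 in controls. Hsp90ab1 ranked 74 with MK-8931 and 78 in controls. These orders rest on the authors' gene lengths, which were 1.80 times the longest coding transcript for Hspa8, 1.90 times for Hspe1 and 1.91 times for Hsph1, and equal to it for Hspa1a and Hspa1b.

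Per transcript length the order changed. With MK-8931, Hspa8 then came first at 616 ± 18.4, ahead of Hsp90ab1 at 561 ± 6.57 and Hspa1b at 464 ± 72.5, on the FPKM scale (SD, n = 2 each). In controls Hsp90ab1 at 552 ± 47.7 and Hspa8 at 540 ± 42.4 overlapped, as did Hsp90aa1 at 169 ± 7.53 and Hspa1b at 146 ± 72.3. Hspe1 came to 65.2 ± 7.32 with MK-8931 and 65.7 ± 10.6 in controls, and Hsph1 to 38.8 ± 19.8 with MK-8931 and 13.2 ± 4.41 in controls. Differences between the groups for a single gene do not depend on the length used.

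Hspa1a, Hspa1b and Hsph1 differed more between the control replicates than the other 7 genes did. Among 4098 genes with a mean of at least 50 CPM, the median absolute log2 ratio between replicates was 0.13 for the MK-8931 libraries and 0.18 for the controls. The 95th percentile was 0.43 for MK-8931 and 0.55 for the controls. For Hspa1b the ratio was 0.32 between the MK-8931 libraries (1.25-fold) and 1.07 between the controls (2.09-fold). The control value stood at percentile 99.7 of those genes. Hspa1a differed 1.22-fold between the MK-8931 libraries and 2.02-fold between the controls, the control value at percentile 99.5. Hsph1 differed 2.12-fold between the MK-8931 libraries, at percentile 99.9, and 1.62-fold between the controls, at percentile 98.1. In contrast, Hspa8, Hsp90ab1 and Hspd1 differed between replicates by 0.03 to 0.16 on the log2 scale in both groups. The level of replicate 1 was above that of replicate 2 in both groups for Hspa1a, Hspa1b and Hsph1.

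**Figure D4:**
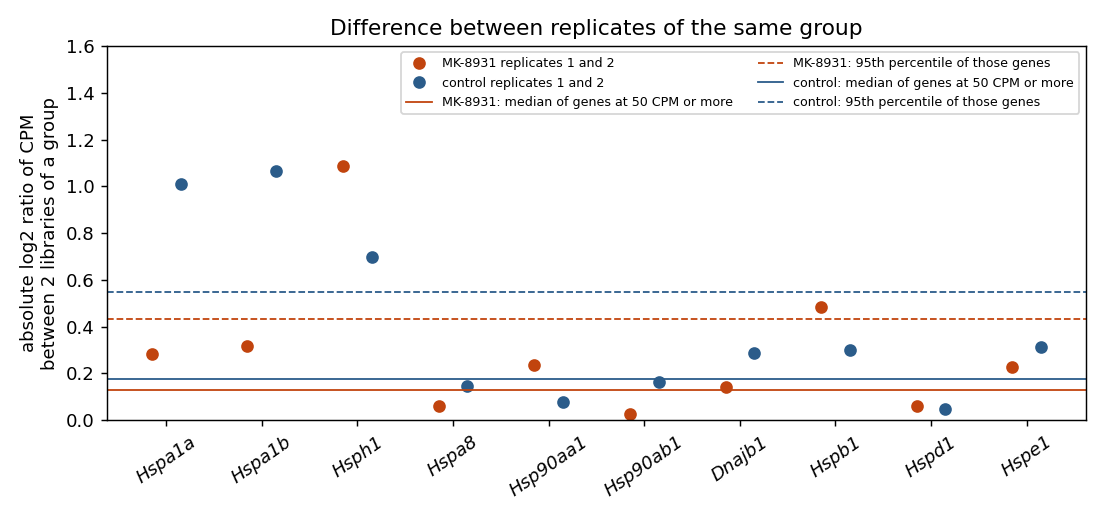
Absolute log2 ratio of CPM between the libraries of a group for each gene, orange for MK-8931 and blue for control. Solid lines are the medians and dashed lines the 95th percentiles over genes with a mean of at least 50 CPM. Hspa1a and Hspa1b in controls, and Hsph1 in both groups, lie above the dashed line of their group, as does the scarce Hspb1 with MK-8931.

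Other genes of the chaperone and stress pathways were read from the same fit. Of 158 such genes outside the set, 147 were tested with edgeR, 0 were higher and 2 were lower with MK-8931, and the median log2 fold change was -0.05. The 2 lower genes were Fkbp5 and Klf4. DESeq2 and limma-voom also called 0 higher, and DESeq2 called 6 lower. At an unadjusted p under 0.05, 2 of the 125 tested genes of the chaperone and heat lists were higher and 6 lower. Of the 20 immediate-early genes, 2 were higher (10%) and 7 lower (35%) at that p. All 147 pathway genes together held 4 higher (2.72%) and 14 lower (9.52%), against 910 (6.53%) and 592 (4.25%) of all genes tested. Without the filter on low counts, 2 were higher and 8 lower, and without control replicate 1, 4 were higher and 13 lower. The falls without control replicate 1 included Dnajb4 (log2 fold change -1.33), Pfdn1 (-0.83), Cirbp (-0.69), Rbm3 (-0.68), Hspa5 (-0.66), Zfand2a (-0.66) and Dnajb9 (-0.58). The rises were Serpinh1, Fosl2, Nr4a1 and Egr1. With all libraries kept, their log2 fold changes were 0.97, 0.65, 0.64 and 0.49.

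Of the heat-shock factors and their regulators, 6 of 10 listed genes were tested and none passed the threshold, nor an unadjusted p under 0.05. Hsf1, the main activator of the response, had 32.8 and 30.4 CPM with MK-8931, against 32.1 and 26.1 CPM in controls (log2 fold change 0.12, adjusted p = 0.888). Hsf2, a partner factor, had 18.6 and 18.5 CPM with MK-8931, against 20.5 and 20.6 CPM in controls (-0.15, adjusted p = 0.849). Ier5, which promotes HSF1 activity, had 229 and 201 CPM with MK-8931 and 250 and 254 CPM in controls (-0.23, adjusted p = 0.600). Hsf4, a factor best known from the lens, had 6.77 and 6.14 CPM with MK-8931 and 8.35 and 8.64 CPM in controls (-0.39, adjusted p = 0.670). Transcript levels do not measure the activity of HSF1.

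None of 7 other HSP70 and HSP110 genes and none of 24 J-domain genes passed the threshold, with median log2 fold changes of 0.04 and -0.05. At an unadjusted p under 0.05, 0 of the HSP70 and HSP110 genes and 2 of the J-domain genes, both lower, were found. Hspa2 and Hspa12a had the smallest p of the HSP70 genes, with log2 fold changes of -0.29 and -0.49 (adjusted p = 0.755 and 0.799). Nearest to it was the J-domain gene Dnajb4, also known to be induced by heat. It had 18.1 and 14.7 CPM with MK-8931, against 29.5 and 40.9 CPM in controls, a log2 fold change of -1.10 with an adjusted p of 0.0537. Dnajc12 followed at -0.54 (adjusted p = 0.423). Among 10 exchange factors and cofactors of HSP70 none passed, nor was any at an unadjusted p under 0.05. Bag1 and Hspbp1, both nucleotide exchange factors, had log2 fold changes of -0.26 and -0.21 (adjusted p = 0.611 and 0.743). Bag3, an exchange factor that is a usual HSF1 target, had 112 and 71.3 CPM with MK-8931 and 99.4 and 91.6 CPM in controls. Its groups overlapped (log2 fold change -0.06, adjusted p = 0.957).

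Among 21 HSP90 co-chaperones tested, Fkbp5 fell with MK-8931. This immunophilin of the HSP90 complex, which lowers hormone binding by the glucocorticoid receptor, had 110 CPM in both MK-8931 libraries, against 209 and 261 CPM in controls. The difference was -1.09 on the log2 scale (SE 0.14, adjusted p = 0.00990), and the call held when any 1 library was left out (largest adjusted p = 0.0318). The median of the list was 0.04. No gene of the other small heat-shock proteins (6 tested) passed or had an unadjusted p under 0.05. Hspb9 had a log2 fold change of -1.22 at 9 to 34 counts a library (adjusted p = 0.606). Cryab, an alpha-crystallin, was near the limit of detection at 1.18 and 0.381 CPM with MK-8931 and 1.40 and 1.84 CPM in controls (adjusted p = 0.711).

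Folding machines of other kinds and compartments gave no call. None passed among 14 genes of the cytosolic chaperonin and prefoldin, 14 other mitochondrial chaperones and proteases, and 17 chaperones of the endoplasmic reticulum. At an unadjusted p under 0.05 there were 0 in the chaperonin list and 1 in each of the others, Hspa9 and Hspa5. Pfdn1 and Cct6a, subunits of prefoldin and of the chaperonin, had log2 fold changes of -0.48 and -0.26 (adjusted p = 0.643 and 0.655). Hspa9, the mitochondrial HSP70, had 352 and 345 CPM with MK-8931, against 407 and 441 CPM in controls (log2 fold change -0.28, adjusted p = 0.444). Hspa5 encodes BiP, the HSP70 of the endoplasmic reticulum, and had 1267 and 1234 CPM with MK-8931, against 1437 and 1964 CPM in controls. Its log2 fold change was -0.44, with an adjusted p of 0.334. Clpx, of a mitochondrial protease, and Dnajb9, a partner of BiP, had log2 fold changes of -0.29 and -0.37 (adjusted p = 0.588 and 0.514).

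Of 20 other genes known to be induced by heat, none passed and the median was 0.02. At an unadjusted p under 0.05, 1 was higher and 2 were lower. Zfand2a, an arsenite- and heat-induced zinc finger gene, had 163 and 129 CPM with MK-8931, against 214 and 230 CPM in controls (log2 fold change -0.60, adjusted p = 0.126). Both cold-inducible genes tested, Cirbp and Rbm3, missed the threshold, with log2 fold changes of -0.61 and -0.41. Of 20 immediate-early genes, which are induced within minutes by many stimuli, only Klf4 passed in the edgeR fit across all genes. At an unadjusted p under 0.05, 2 of the 20 were higher and 7 lower. Klf2 was also called lower with DESeq2 and limma-voom, and Klf6 with DESeq2. Without the filter on low counts, edgeR also called Fosb, Klf2 and Klf6 lower and Fosl2 higher. With the replicate number as a block, Egr1, Fosl2, Junb and Nr4a1 were called higher. Atf3, Fos, Fosb, Jun, Jund, Klf2 and Klf6 were called lower with the block. These genes are named here after their values were seen. Klf4, a zinc finger factor, had 193 and 146 CPM with MK-8931, against 326 and 367 CPM in controls, which is -1.03 on the log2 scale (SE 0.16, adjusted p = 0.0226). Without MK-8931 replicate 2 the adjusted p of Klf4 was 0.124. Among pathway genes with a promoter window, 2 of 126 held a run of 3 units, Chordc1 and Dnajb6. Their log2 fold changes were 0.15 and -0.08, and neither passed the threshold.

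**Figure D5:**
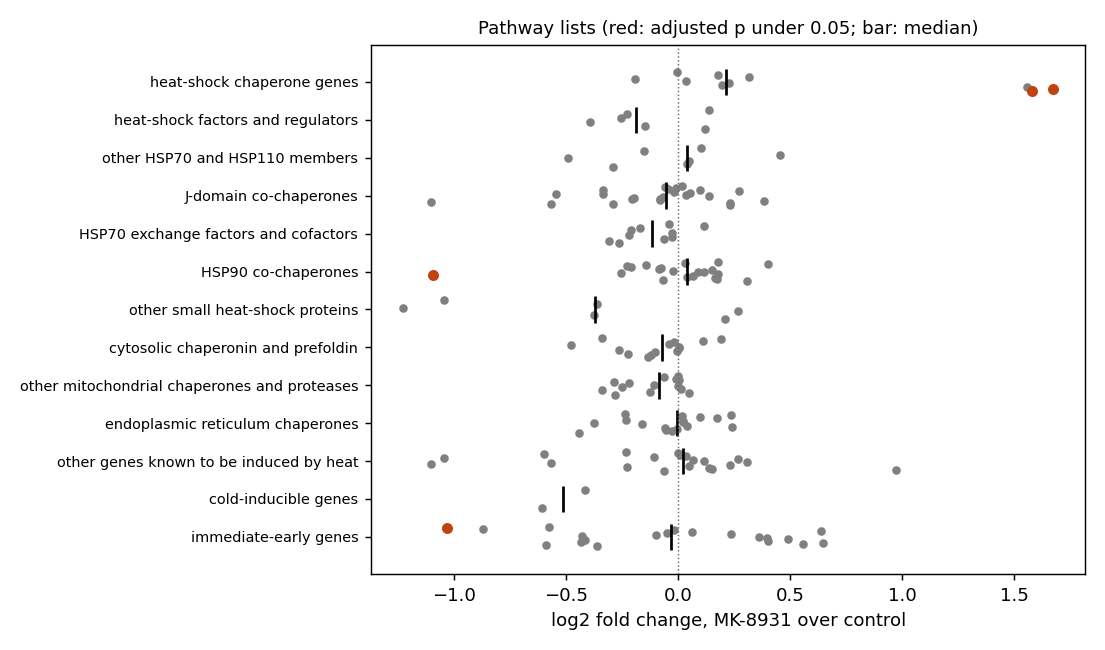
Log2 fold change of MK-8931 over control for every tested gene of the 10 chaperones and of each pathway list, without the cell type marker lists. Each point is a gene, red where the adjusted p was under 0.05, and the bar is the list's median. Hspa1a and Hspa1b are the red points on the right, Fkbp5 and Klf4 those on the left, and the medians of the pathway lists lie between -0.51 and 0.04.

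The libraries held between 18257930 and 20179875 counts, and 18258 to 20075 genes were detected in each. A level of 3 counts corresponds to 0.153 to 0.163 CPM. Genes of the antigens that the sort selected were present. Ptprc (CD45) had 534 and 536 CPM with MK-8931 and 453 and 377 CPM in controls, and Itgam (CD11b) had 328 and 345 CPM with MK-8931 and 220 and 180 CPM in controls. Among macrophage markers the labels do not name, Csf1r had 1583 and 1490 CPM with MK-8931 and 1619 and 1548 CPM in controls, and Adgre1 had 1034 and 1037 CPM with MK-8931 and 1082 and 1182 CPM in controls. Of 14 macrophage markers only Itgam passed, at a log2 fold change of 0.75. The median of the list was -0.11, and at an unadjusted p under 0.05 in edgeR 3 were higher and 4 lower. C1qa, C1qb and C1qc had log2 fold changes of -0.60, -0.47 and -0.58, with both MK-8931 libraries below both controls. Among dendritic cell markers 0 of 10 tested passed, with summed levels of 204 and 250 CPM with MK-8931 and 181 and 138 CPM in controls. Their log2 fold changes were positive for 9 and negative for 1, with a median of 0.90. At an unadjusted p under 0.05 in edgeR, 4 of them were higher and 0 lower. Lymphocyte markers summed to 28.0 and 30.1 CPM with MK-8931 and 38.3 and 49.4 CPM in controls. Brain, vessel and stroma markers summed to 538 and 759 CPM with MK-8931 and 551 and 287 CPM in controls, with 0 of 9 tested past the threshold. The part of these cells in the chaperone levels was not tested.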

How the data were processed

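Bulk RNA-seq of 4 mouse libraries was read from 1 table. The authors deposited whole-number read counts for each gene, per the file headers. Beside them stand FPKM values, which the authors scaled to gene length and library size and which equalled the count times a library constant over gene length for 100% of genes (tolerance 0.001). The authors' deposited table also gives log2 fold changes and adjusted p-values, with no test named. The submitters' processing notes name CASAVA and mm9. Coordinates in the file matched GRCm38 for 98.26% of 54409 shared identifiers and for all 10 chaperone genes, and are given as GRCm38. No source used here names the aligner, the counter or the use of strand, so reads of near-identical or overlapping genes are uncertain.

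Counts were tested with edgeR 4.0.16 in R 4.3.3: filterByExpr with a minimum count of 10, TMM scaling, glmQLFit with robust dispersions and glmQLFTest, two-sided, Benjamini-Hochberg adjustment over 13932 genes and a threshold of 0.05. SE is the absolute log2 fold change over the square root of F. Absolute log2 ratios between replicates used CPM plus 0.5. The step was tested on simulated data, where 7 of 65 genes changed 1.5-fold were called. At 2-fold 38 of 67 were called, and at 4-fold 56 of 65, with 7 false calls among 108. A gene that did not pass may therefore still differ. The simulated spread between replicates followed the trend across genes. The shares recovered may thus be too high for genes with a wider spread, such as Hspa1a, Hspa1b and Hsph1. Sampling noise did not account for the difference between replicates (chi-square over degrees of freedom 15.7 for MK-8931 and 26.8 for controls). This does not show that the libraries came from different animals. Each was counted as 1 sample. The chaperone genes and all lists were chosen with earlier results of these data known. Named pathway genes were Hsf1, Hsf2, Bag3, Hspa5, Hspa9, Cryab and Fkbp5, and in each list the 2 smallest p per direction past the threshold or else the 2 smallest p, all named in the report. Alternatives were other scalings, no filter, DESeq2 1.42.0, limma-voom (limma 3.58.1), each library left out, and the replicate number as a block. Coding sequences of GENCODE transcripts were compared with Biopython 1.88, in place of the proteins first planned, and lengths of the longest coding transcript were used as an alternative for FPKM.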

Additional observations from a re-analysis of the deposited data

How the results depend on the processing

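The replicate numbers of the labels were not established as pairs, since 2 pairs are too few and the labels do not say what the numbers mark (correlation of the difference between replicates 1 and 2, MK-8931 with control, 0.219). Genes higher with MK-8931 numbered 120, against 366 without a filter on low counts, 266 with DESeq2, 468 with the replicate block, and 85 to 520 with 1 library left out. Genes lower numbered 19, against 176 without the filter, 96 with DESeq2, 30 with limma-voom, 275 with the replicate block, and 10 to 243 with 1 library left out. The chaperone genes called higher numbered 2, against 0 with library size alone, 0 with DESeq2 and 0 to 2 with 1 library left out. The replicate block called 3, adding Hsph1. Pathway genes called higher numbered 0, against 2 without the filter, 4 with the replicate block and 0 to 4 with 1 library left out. Those called lower numbered 2, against 8 without the filter, 6 with DESeq2, 13 with the replicate block and 1 to 13 with 1 library left out. Without the filter 23654 genes were tested in place of 13932, and leaving out a library leaves 1 sample in a group, assumed to vary like the other group. The cause of the other shifts was not tested. With 1 library left out, the log2 fold change of Hsf1 ranged between -0.022 (without control replicate 2) and 0.27, and that of Bag3 between -0.43 and 0.21 (without MK-8931 replicate 2). The scalings moved the median of all genes by at most 0.03 on the log2 scale. Depth limits Cryab, with 7 to 36 counts a library. Dnajb4 and Zfand2a passed the threshold without the filter, with DESeq2, with the replicate block and without control replicate 1 (Dnajb4: adjusted p between 5.70e-06 and 0.214 over all alternatives). With transcript lengths, chosen after seeing the data, the mean FPKM ratio of Hspa1a plus Hspa1b to Hspa8 was 1.03 in place of 1.84 with MK-8931, and 0.384 in place of 0.690 in controls.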
